A study of Mus musculus with 35 samples.

Results

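The genes described here encode the main building blocks of skin basement membranes: the laminin chains Lama3, Lamb3, Lama5, Lamb2 and Lamc1, the collagen IV chains Col4a1 and Col4a2, the nidogen Nid1 and the perlecan core protein Hspg2. They were chosen by symbol, and all 9 were found among the 22609 symbols of every count table. Messenger RNA had been sequenced from 35 libraries of cells sorted from the hind paw skin of C57 mice aged 8 to 16 weeks. Keratinocytes were sorted by tdTomato from K5-cre-ER/tdTom mice (K5 sort), immune cells by CD45 from wild-type mice (CD45 sort), and fibroblasts by tdTomato from Col1a2-cre-ER/tdTom mice (Col1a2 sort). Both reporters are switched on by a tamoxifen-inducible Cre, so the K5 and Col1a2 sorts hold cells in which that promoter had been active. Each sort came from males given paclitaxel (PTX), a microtubule-stabilising chemotherapy drug, from vehicle females and from vehicle males. PTX had been given as 2 injections of 2 mg/kg into the peritoneum on following days, and the skin was collected 6 days after the last of them. Every group held 4 libraries, except vehicle males of the K5 sort with 3. Tissue of both paws was joined in a library. Whether libraries of a group came from different mice is not stated, so the p-values rest on the spread between libraries, part or all of which may be technical.

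A basement membrane is a thin matrix sheet under epithelia and around vessels, nerve and muscle. Laminins are trimers of an alpha, a beta and a gamma chain that bind cell surface receptors. Lama3 and Lamb3 encode the alpha and beta chains of the epidermal laminin that anchors basal keratinocytes through hemidesmosomes. Lama5 encodes an alpha chain found under epidermis and in vessels, Lamb2 a beta chain known from vessels and synapses, and Lamc1 a gamma chain of many laminins. Col4a1 and Col4a2 encode chains that assemble into the same collagen IV trimer. Nidogen links laminin to collagen IV, and perlecan is a large heparan sulfate proteoglycan of the same sheet.

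Counts in genes ranged from 6518070 to 12055718 per K5 library, apart from 988712 in replicate 2 of the K5 vehicle females. They ranged from 13847475 to 18979776 per CD45 library and from 13359088 to 20809036 per Col1a2 library. Levels are given as CPM, a gene's count relative to its library's total, scaled with TMM over all 35 libraries. The vehicle libraries carried their sort's gene: Krt5, a basal keratin, had 2680 to 6370 CPM in the K5 sort, Ptprc, which encodes CD45, had 360 to 734 CPM in the CD45 sort, and Col1a2 had 7260 to 13000 CPM in the Col1a2 sort. Several libraries stood apart by markers of other cell types. All 4 CD45 libraries of vehicle males held fibroblast RNA, with Col1a2 at 454 to 1240 CPM, against 7.48 to 45.2 CPM in CD45 vehicle females. Ptprc had 360 to 568 CPM in those males. All 4 K5 libraries of PTX males held fibroblast, endothelial and immune RNA, with Col1a2 at 1100 to 2930 CPM, against 0.923 to 1.37 CPM in vehicle males. Replicate 2 of the K5 vehicle males had 320 CPM of the endothelial gene Pecam1, against 0.136 and 0.308 CPM in the other two, and replicate 4 of the CD45 vehicle males had 584 CPM of Krt5. In these bulk libraries, fewer cells of a type and less RNA per cell cannot be told apart.

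**Figure D1:**
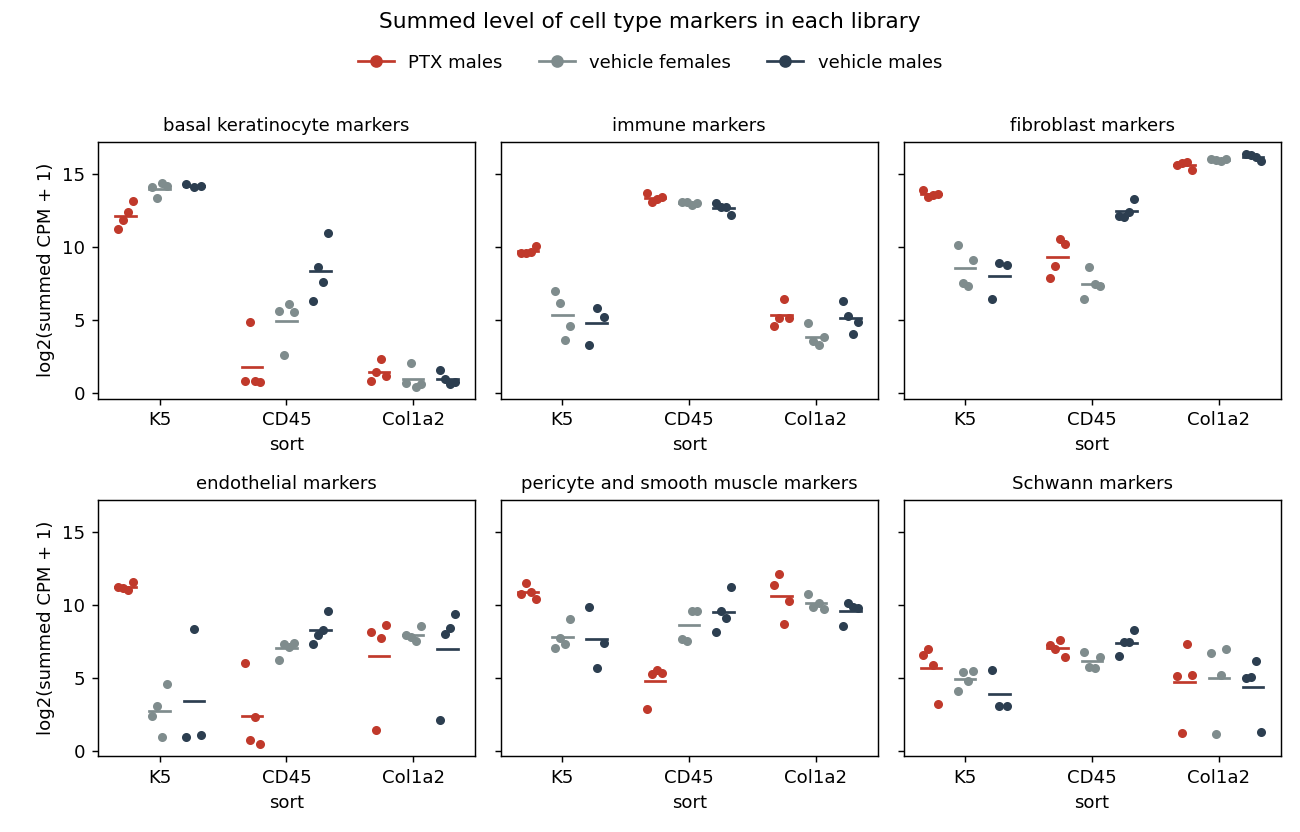
Summed CPM of cell type marker lists in each library, as log2(sum + 1), by sort (x axis) and group (colour), with bars at the group means. In the K5 sort the PTX libraries held 11000 to 15300 CPM of 8 fibroblast markers, against 85.6 to 483 CPM in vehicle males. In the CD45 sort they held 0.375 to 64.3 CPM of 10 endothelial markers, against 157 to 756 CPM in vehicle males.

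The first comparison asked how these genes are divided among the sorts without the drug. In vehicle libraries the epidermal laminin chains were highest in the K5 sort, and 6 of the other members were highest in the Col1a2 sort. Lama3 had 6.93 to 340 CPM with a median of 165 in the 7 K5 vehicle libraries, against 0 to 24.1 CPM with a median of 1.28 in the 8 Col1a2 libraries. One K5 library, replicate 3 of the vehicle males with 6.93 CPM, fell inside the range of the Col1a2 sort. Lamb3 had 0.608 to 495 CPM with a median of 191 in the K5 vehicle libraries, and not 1 read in any of the 8 Col1a2 vehicle libraries. The means were at least 949-fold apart, with a floor of 3 counts in each library at 0. The lowest K5 library, replicate 2 of the vehicle males, held 4 Lamb3 counts. It also held 5 counts or fewer of Lama5, Lamb2, Lamc1, Col4a2 and Nid1. That library had 4546 genes with at least 10 counts, the fewest of all 35 libraries. The other K5 vehicle males had 8872 and 7298.

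The K5 over Col1a2 difference was 4.93 ± 1.61 on the log2 scale for Lama3 (edgeR quasi-likelihood test, adjusted p = 0.0206) and passed for Lamb3 (adjusted p = 3.84e-07), whose fitted value depends on the prior count. With vehicle males alone the Lama3 difference was 3.88 (adjusted p = 0.244). Lama5 was spread widely within both sorts. It had 0.608 to 366 CPM with a median of 186 in the K5 vehicle libraries, and 0.072 to 104 CPM with a median of 3.81 in the Col1a2 vehicle libraries. The sorts overlapped, and the difference of 2.69 ± 1.18 did not pass (adjusted p = 0.087). Without replicate 3 of the Col1a2 vehicle males, the male library with 40.1 CPM, it was 5.86 (adjusted p = 0.00103).

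Lamb2, Lamc1, both collagen IV chains, Nid1 and Hspg2 were lower in the K5 sort than in the Col1a2 sort. Of these 6, Nid1 differed most. It had 0.231 to 53.9 CPM with a median of 0.76 in the K5 vehicle libraries, against 810 to 1830 CPM with a median of 1500 in the Col1a2 vehicle libraries, a difference of -6.90 ± 0.96 (adjusted p = 4.45e-07). Lamc1 had 0 to 47 CPM with a median of 10.8 in the K5 libraries, against 287 to 701 CPM with a median of 501 in the Col1a2 libraries, a difference of -5.11 ± 0.85 (adjusted p = 1.07e-05). For both genes every K5 library lay below every Col1a2 library. Lamb2 differed by -3.98 ± 0.82 (adjusted p = 0.000291) and Col4a2 by -4.19 ± 0.77 (adjusted p = 5.61e-05), also without overlap. Col4a1 differed by -3.89 ± 0.94 (adjusted p = 0.00163) and Hspg2 by -2.30 ± 0.60 (adjusted p = 0.00354), and for these the ranges overlapped. The highest K5 Col4a1 values, 232 CPM in replicate 4 of the females and 162 CPM in replicate 2 of the males, stood beside 223 CPM in the lowest Col1a2 library. Hspg2 kept a median of 66.9 CPM in the K5 vehicle libraries, from 13.4 to 353 CPM.

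Of the 9 members, 2 were thus higher and 6 lower in the K5 sort, and the ranges did not overlap for 1 of the higher and 4 of the lower ones. Over all 14459 genes tested, 27.5% passed, 8.96% higher and 18.5% lower. The ranges were apart for 3.24% of all genes in the higher direction and for 6.38% in the lower one. With scaling by library size alone, 1738 genes were higher and 2175 lower, against 1295 and 2677 with TMM. The median difference over all genes was 0.157 with library size and -0.397 with TMM. With library size the same 6 members were lower and 3 higher, Lama5 being added.

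**Figure D2:**
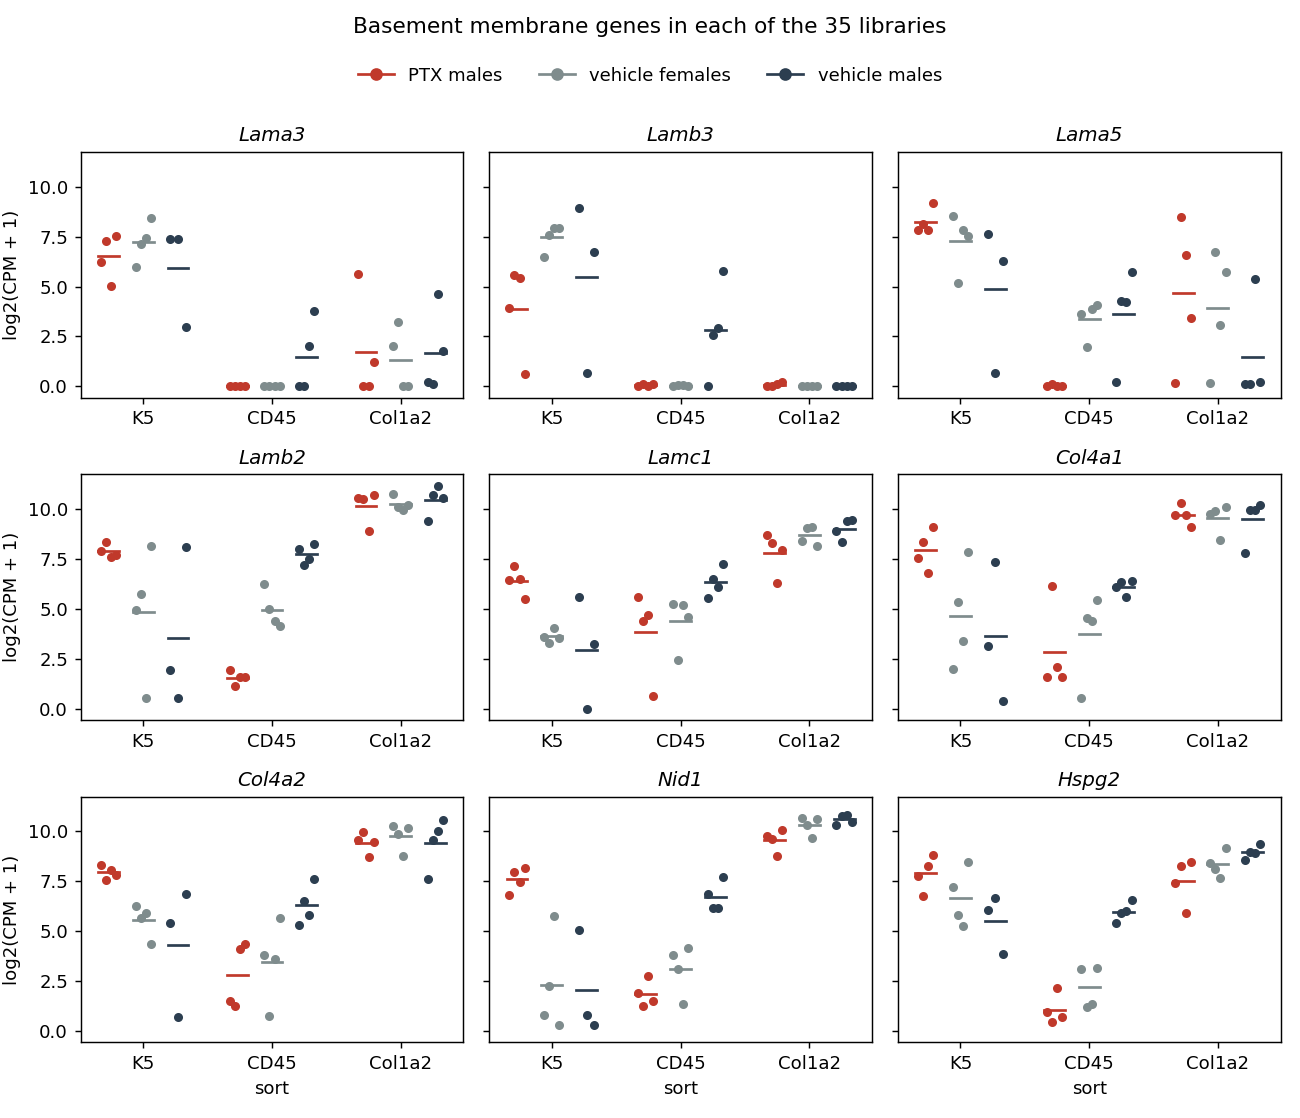
Level of each of the 9 genes in every library as log2(CPM + 1), by sort (x axis) and group (colour), with bars at the group means. Lamb3 was at 0 in all 8 Col1a2 vehicle libraries, and Nid1 was at 810 CPM or more in each of them. Lamb2 lay between 1.23 and 2.78 CPM in the 4 CD45 libraries of PTX males, below 16.7 CPM, the lowest CD45 vehicle library.

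The CD45 sort was set against the Col1a2 sort in the same fit. Here 7 members were lower in the CD45 vehicle libraries and Lamb3 was higher, where 19.4% of all genes passed, 7.22% being lower and 12.2% higher. Hspg2 had 1.34 to 94.1 CPM with a median of 24.6 in the CD45 libraries, against 201 to 659 CPM with a median of 433 in the Col1a2 libraries, a difference of -4.62 ± 0.63 (adjusted p = 3.33e-07). The 2 sorts did not overlap for Hspg2, nor for Lamb2, Lamc1, Col4a1 and Nid1, where 3.82% of all genes were apart in that direction. Lamb3 in the CD45 sort came from 3 vehicle males with 4.93, 6.62 and 53.5 CPM. Replicate 1 of those males was at 0, and the 4 vehicle females had 0, 0.0637, 0.0608 and 0 CPM. The Krt5 level in the same male libraries was 19.4, 111, 25.3 and 584 CPM in replicate order, and its part in the Lamb3 value was not tested. The Lama3 call (adjusted p = 0.0406) was lost without any one of 9 libraries, with an adjusted p of 0.146 without replicate 3 of the Col1a2 vehicle males. It was also lost with library size alone (adjusted p = 0.0536) and with only these sorts (adjusted p = 0.0957). With vehicle males alone 4 members passed, not 8, and Lama3 (-0.759, adjusted p = 0.935), Lamb2 (adjusted p = 0.103), Lamc1 (adjusted p = 0.107) and Col4a1 (adjusted p = 0.0749) did not. The 8 fibroblast markers summed to 85 to 401 CPM in the CD45 vehicle females and 4210 to 9930 CPM in the CD45 vehicle males. Their part in the CD45 levels, here and in the next comparisons, was not tested.

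Between the K5 and CD45 sorts, Lama3, Lamb3 and Hspg2 were higher in the K5 vehicle libraries and none was lower, where 28.1% of all genes passed and 6.6% were higher. Lama3 was at 0 in 6 of the 8 CD45 vehicle libraries, and the 2 others, both male, had 3.12 and 12.6 CPM. Hspg2 had 13.4 to 353 CPM in the K5 libraries and 1.34 to 94.1 CPM in the CD45 libraries, a difference of 2.31 ± 0.58 (adjusted p = 0.00243). With vehicle males alone none of these 3 passed: the difference was 4.63 for Lama3 (adjusted p = 0.177), 3.51 for Lamb3 (adjusted p = 0.185) and -0.34 for Hspg2, while Nid1 was lower, by -3.49 (adjusted p = 0.0464). The other 6 members did not pass with both sexes, with adjusted p from 0.052 for Lama5 to 1 for Lamb2. Lama5 passed with RLE scaling (adjusted p = 0.0425), with library size alone (0.0338), without the filter on low counts (0.0481) and with only these sorts (0.00924).

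To compare levels between genes, CPM was divided by the length of the longest coding sequence, which ranged from 3504 bases for Lamb3 to 13149 bases for Hspg2. In the Col1a2 vehicle libraries Nid1 was the most abundant per kb, with a median of 402 CPM per kb (217 to 490). Lamb2 followed with 247 (125 to 428), Col4a1 with 193 (44.5 to 236), Col4a2 with 192 (38.1 to 293) and Lamc1 with 104 CPM per kb (59.5 to 145). Each of these neighbours overlapped the next. Hspg2, at 33 CPM per kb (15.3 to 50.1), lay below every Lamc1 value, and Lama5, at 0.342 CPM per kb (0.00646 to 9.32), below every Hspg2 value.

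In the K5 vehicle libraries the order was different, with Lamb3 at the top at a median of 54.5 CPM per kb (0.174 to 141). Lama5 followed with 16.7 (0.0545 to 32.8), Lama3 with 16.5 (0.694 to 34) and Col4a2 with 9.76 CPM per kb (0.119 to 22.5). Nid1 was last with 0.203 CPM per kb (0.0618 to 14.4). All neighbours in this order overlapped. In the CD45 vehicle libraries Lamb2 was first with 20.5 CPM per kb (3.09 to 56.7) and Lama3 last with a median of 0 (0 to 1.26), and again all neighbours overlapped.

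**Figure D3:**
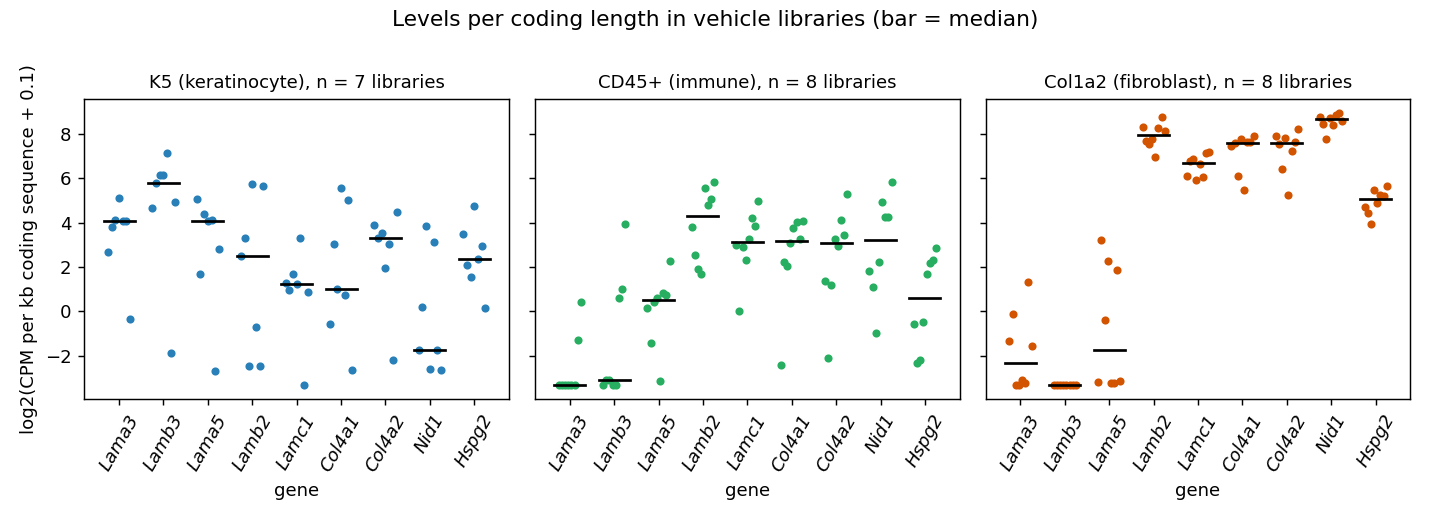
Level per kb of coding sequence, as log2(CPM per kb + 0.1), of each gene in the vehicle libraries of each sort. Points are libraries and bars are medians. Lamb3 led in the K5 sort with a median of 54.5 CPM per kb and Nid1 in the Col1a2 sort with 402 CPM per kb.

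Across the 35 libraries, log2(CPM + 1) of Lama3 and Lamb3 had a Pearson correlation of 0.712. The 6 members from Lamb2 to Hspg2 correlated with each other at 0.618 to 0.884, and with Lamb3 at -0.348 to 0.107. The libraries share sorts, so these values describe the split among sorts and are no test. By the same measure the nearest patterns to Lamb3 were BC048355 (0.93), Gpr115 (0.919) and Ap1m2 (0.902), and those nearest to Col4a1 were Ltbp4 (0.893), Enpp2 (0.891) and Igfbp7 (0.876), among 13914 genes.

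Promoter windows of 300 bases, from 250 before to 50 after a start site, were taken from RefSeq on GRCm38.p6 and covered 7 of the 9 members. The following are shown because Col4a1 and Col4a2 lie head to head on opposite strands, and because Lamb3 had no read in the Col1a2 vehicle libraries. The collagen IV start sites used here lie 21 bases apart, each inside the other gene, so the first bases of the genes overlap. Capitals mark matches on either strand to the AP-1 type motif TGANTCA, to the GC box GGGCGG, to the CCAAT box, to the TATA type motif TATAAA and to the E-box CANNTG.
Lamb3, chr1:193301744-193302043, plus strand: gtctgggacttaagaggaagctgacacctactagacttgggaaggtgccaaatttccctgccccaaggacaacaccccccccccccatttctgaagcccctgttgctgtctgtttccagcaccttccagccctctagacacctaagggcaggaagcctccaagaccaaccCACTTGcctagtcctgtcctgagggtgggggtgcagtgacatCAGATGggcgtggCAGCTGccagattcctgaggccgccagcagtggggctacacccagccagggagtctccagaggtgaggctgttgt
Col4a1, chr8:11312777-11313076, minus strand: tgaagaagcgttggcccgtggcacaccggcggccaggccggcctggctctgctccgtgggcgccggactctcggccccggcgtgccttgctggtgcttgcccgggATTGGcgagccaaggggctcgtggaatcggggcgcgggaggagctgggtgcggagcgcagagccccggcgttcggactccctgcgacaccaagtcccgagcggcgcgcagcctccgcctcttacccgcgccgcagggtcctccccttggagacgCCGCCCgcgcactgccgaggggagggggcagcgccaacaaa
Col4a2, chr8:11312555-11312854, plus strand: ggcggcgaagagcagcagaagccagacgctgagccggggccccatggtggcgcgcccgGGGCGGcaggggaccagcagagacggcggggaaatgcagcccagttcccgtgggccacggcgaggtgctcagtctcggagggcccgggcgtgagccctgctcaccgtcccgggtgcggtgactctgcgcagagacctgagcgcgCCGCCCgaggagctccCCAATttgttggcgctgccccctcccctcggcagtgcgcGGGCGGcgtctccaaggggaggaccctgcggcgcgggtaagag

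The Lamb3 window held 3 E-box matches and none of the other 4 motifs, and another Lamb3 window, whose start lies 249 bases downstream, held 2. The Col4a1 window held 1 GC box and 1 CCAAT box match, and the Col4a2 window 3 and 1 of these. The windows share 78 bases, in which 1 GC box match is the same site read from both strands. The AP-1 type and TATA type motifs had no match in the 8 member windows. Of all 32851 windows of this length, 72.3% held an E-box, 35.7% a GC box, 37.4% a CCAAT box, 13.6% the TATA type motif and 7.81% the AP-1 type motif.

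The collagen IV pair followed each other unequally among the sorts. In the Col1a2 sort log2(CPM + 1) of Col4a1 and Col4a2 had a Pearson correlation of 0.864 over 12 libraries. In the CD45 sort it was 0.385 over 12 libraries, and in the K5 sort 0.0177 over 11. Replicate 2 of the K5 vehicle males had 162 CPM of Col4a1 (1063 counts) and 0.608 CPM of Col4a2 (4 counts). Replicate 3 had 0.308 CPM (4 counts) and 115 CPM (1489 counts). The cause of such gaps was not tested. Groups are mixed in the correlations, and no difference between them was tested.

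**Figure D4:**
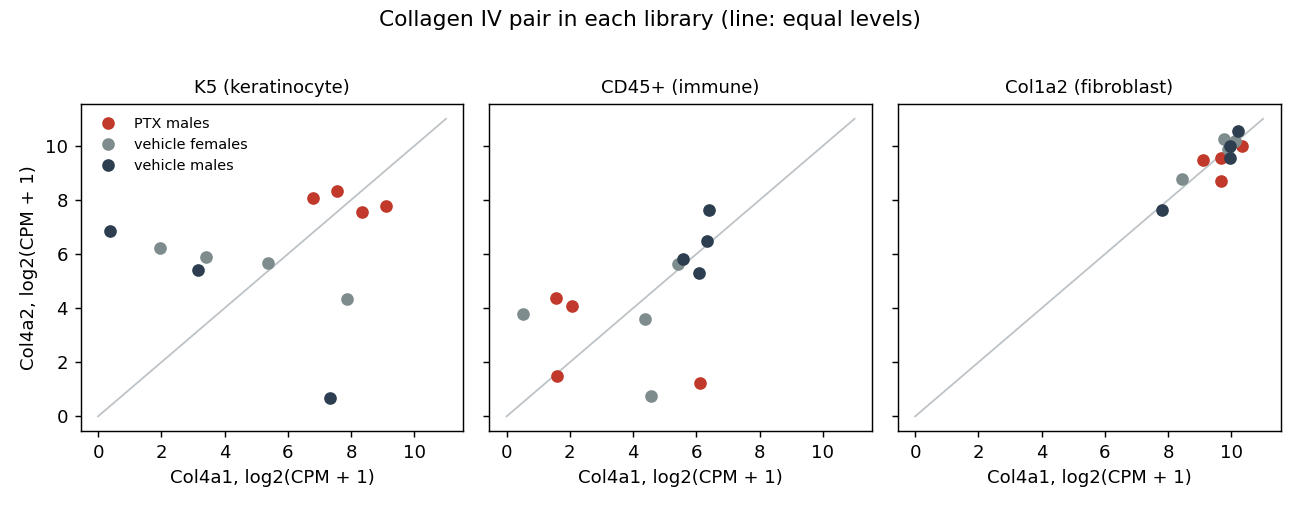
Col4a2 (y axis) against Col4a1 (x axis), both as log2(CPM + 1), in each library of the 3 sorts, coloured by group, with a line of equal levels. The Col1a2 libraries lay along the line (Pearson correlation 0.864), against 0.0177 in the K5 sort, where log2 of Col4a1 over Col4a2 was -1.27 to 1.3 in the 4 PTX libraries, -4.64 to 3.57 in vehicle females and -8.37 to 7.88 in vehicle males.

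PTX was then set against vehicle within each sort. In the CD45 sort 4 of the 7 members tested were lower in PTX males than in vehicle males, and none was higher. Over all 12131 genes tested, 4.56% were lower and 0.956% higher. With limma and voom weights none of the 4 passed, at adjusted p of 0.209 for Lamb2 and Hspg2, 0.278 for Nid1 and 0.35 for Lama5. Lamb2 had 2.78, 1.23, 2.02 and 1.97 CPM in PTX males, against 252, 147, 181 and 306 CPM in vehicle males. The 2 groups were far apart and the PTX values lay close together. The log2 fold change was -6.87 ± 0.68 (adjusted p = 0.000732).

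Nid1 had 2.78, 1.38, 5.81 and 1.87 CPM in the CD45 libraries of PTX males, against 114, 69.6, 70 and 210 CPM in vehicle males. All PTX libraries were below all vehicle male libraries, and the change was -5.37 ± 0.98 (adjusted p = 0.0105). Hspg2 had 0.955, 0.362, 3.47 and 0.656 CPM in PTX males, against 41.2, 58.8, 64 and 94.1 CPM in vehicle males. It was apart as well, with a change of -5.64 ± 1.22 (adjusted p = 0.0205), and the call was lost without replicate 2, 3 or 4 of the vehicle males (adjusted p = 0.0545, 0.0547 and 0.0597).

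Lama5 had 0, 0.0724, 0 and 0 CPM in PTX males, which is 1 read in 4 libraries, against 0.15, 18.5, 17.6 and 52 CPM in vehicle males. Replicate 1 of the vehicle males, with 3 reads, was close to the PTX values. The test passed (adjusted p = 0.0189). Scaled to depth, the summed counts differed 1110 times, with a 95% counting interval of 199 to 43800 that covers counting error only. Lama3 had no read in the 4 PTX libraries and 0, 0, 3.12 and 12.6 CPM in vehicle males, so the mean was at least 16.1-fold lower in PTX males. Lamb3 had 2 reads in PTX males, and 0, 4.93, 6.62 and 53.5 CPM in vehicle males, a ratio of 418 with a counting interval of 115 to 3450. Both were too low in most libraries to be tested with the filter on low counts. Without it neither passed, with adjusted p of 0.188 for Lama3 and 0.0852 for Lamb3.

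Collagen IV and Lamc1 did not pass in the CD45 sort. Col4a2 had 1.83, 1.38, 16.1 and 19.5 CPM in PTX males, against 38.4, 89.2, 55.7 and 197 CPM in vehicle males. The groups were apart, and the change of -3.41 ± 1.25 had an adjusted p of 0.125. Col4a1 had 1.99, 68.8, 3.23 and 1.97 CPM in PTX males, against 67.4, 80.2, 47.2 and 84.1 CPM in vehicle males. One PTX library, replicate 2, lay inside the vehicle range. The change was -2.04 ± 1.32 (adjusted p = 0.514), and without that library -4.93 (adjusted p = 0.0448). Lamc1 had 48.1, 20.1, 24.5 and 0.562 CPM in PTX males, against 45.6, 89.4, 68.3 and 150 CPM in vehicle males, a change of -1.97 ± 1.03 (adjusted p = 0.338), with overlap. In all, 5 of the 7 tested members had every PTX library below every vehicle male library, as had 10.4% of all genes tested. The median change over the 7 was -5.37, beside 0.0964 over all genes.

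Markers of other cell types differed between the same CD45 groups. The 8 fibroblast markers summed to 232 to 1500 CPM in PTX males, against 4210 to 9930 CPM in vehicle males, and 5 of the 8 were lower. The 9 pericyte and smooth muscle markers summed to 6.21 to 45.7 CPM in PTX males, against 281 to 2350 CPM in vehicle males, and 5 were lower. Of the 10 endothelial markers, 6 were lower, and Kdr and Emcn had no read in PTX males. The 5 basal keratinocyte markers summed to 0.656 to 28.7 CPM in PTX males, with Trp63 and Dsg3 at 0, against 76.5 to 2040 CPM in vehicle males. The 5 adipocyte markers summed to 0.0796 to 10.8 CPM in PTX males and 153 to 676 CPM in vehicle males. Sums overlapped for skeletal muscle markers (1.67 to 64.8 against 16.3 to 945 CPM). They also overlapped for suprabasal keratinocyte markers (13.5 to 48.2 against 38.6 to 301 CPM) and Schwann markers (85.4 to 187 against 87.3 to 307 CPM). Ptprc had 510 to 875 CPM in PTX males and 360 to 568 CPM in vehicle males. Genes with at least 10 counts numbered 5992 to 8723 in PTX libraries and 11029 to 12872 in vehicle male libraries. The part of these differences in the members' change was not tested.

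The vehicle females of the CD45 sort lay between these groups for Lamb2. It had 74.8, 30.7, 19.7 and 16.7 CPM in vehicle females. All were below the 147 CPM of the lowest vehicle male and above the 2.78 CPM of the highest PTX male. The share of all genes apart between PTX males and vehicle females was not counted. With vehicle females as controls, Lamb2 (-4.18, adjusted p = 0.0131) and Lama5 (-8.74, adjusted p = 0.0434) were lower in PTX males. Nid1 (-1.76, adjusted p = 0.338) and Hspg2 (-1.80, adjusted p = 0.486) did not pass. The fibroblast markers summed to 85 to 401 CPM in these females, and the endothelial markers to 73.5 to 166 CPM.

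Other basement membrane genes of the CD45 sort were counted from lists. Of 8 other basement membrane proteins tested, 3 were lower and none higher in PTX males. They were Tinagl1, a tubulointerstitial nephritis antigen-like protein, with 0.195 ± 0.186 CPM in PTX males and 121 ± 78.3 CPM in vehicle males (SD, n = 4 each, adjusted p = 0.00879), Fbln1, which encodes fibulin, and the collagen XVIII gene Col18a1. Of 16 receptor and hemidesmosome genes 3 were lower: the integrin chains Itga7 and Itga3 and the hemidesmosomal collagen gene Col17a1. Of 4 other laminin chains only Lamb1 passed, with 0.563 ± 0.212 CPM in PTX males and 20.8 ± 10.5 CPM in vehicle males (adjusted p = 0.0312). Of 10 assembly enzymes 3 were lower, the collagen chaperone Serpinh1, the peroxidasin Pxdn, which cross-links collagen IV, and the procollagen protease Bmp1. Of 6 proteases the gelatinase Mmp2 was lower, with 9.47 ± 3.37 CPM in PTX males and 364 ± 201 CPM in vehicle males (adjusted p = 0.00207). The list medians ran from -5.33 for other laminin chains to 1.26 for 2 other collagen IV chains.

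**Figure D5:**
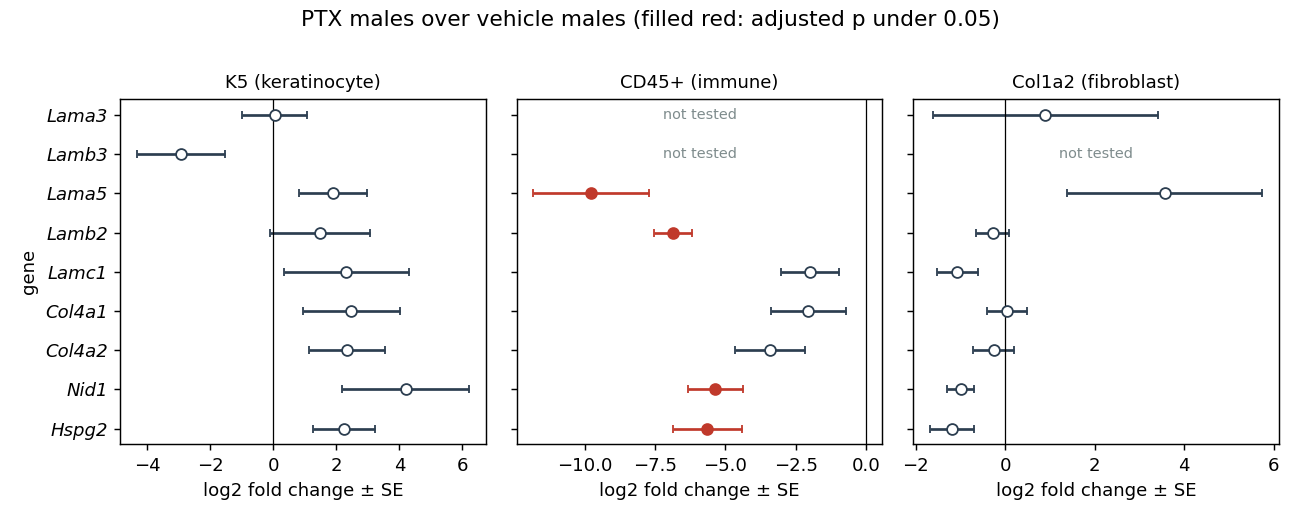
Log2 fold change of PTX males over vehicle males with its standard error (x axis) for each gene (y axis) in the 3 sorts, on a separate scale for each sort. Filled red points passed at an adjusted p of 0.05. The 4 that passed were Lama5, Lamb2, Nid1 and Hspg2 in the CD45 sort.

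In the K5 sort none of the 9 members passed between PTX males and vehicle males, where 1.45% of all genes did. By edgeR, 2 of the 9 had an unadjusted p under 0.05, as had 1619 of all 10939 genes tested. DESeq2 called 1, Nid1 (adjusted p = 0.0427), and limma with voom none. Nid1 had 110, 250, 175 and 289 CPM in PTX males, against 32.7, 0.76 and 0.231 CPM in vehicle males. All PTX libraries were above all vehicle males, and the change was 4.20 ± 2.02 (adjusted p = 0.343), or 8.85 (adjusted p = 0.194) without replicate 1 of the vehicle males. Hspg2 had 216, 109, 303 and 454 CPM in PTX males, against 66.9, 99.2 and 13.4 CPM in vehicle males, a change of 2.25 ± 0.97 (adjusted p = 0.283). Hspg2, Nid1, Lama5 and Col4a2 each had every PTX library above every vehicle male library, as had 8.86% of all genes tested. The vehicle females reached 353 CPM for Hspg2 and 366 CPM for Lama5, inside the PTX range. They stayed at or below 53.9 CPM for Nid1 and 74.4 CPM for Col4a2, below every PTX library. How many of all genes were apart between PTX males and vehicle females was not counted.

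Lamb3 ran the other way in the K5 sort. It had 14, 46.1, 42 and 0.562 CPM in PTX males, against 88.7, 191, 245 and 243 CPM in vehicle females and 495, 0.608 and 105 CPM in vehicle males. All PTX values lay below all female values, a gap whose share over all genes was not counted. Replicate 2 of the vehicle males fell among the PTX libraries. The change against vehicle males was -2.93 ± 1.39 (adjusted p = 0.333), with -3.55 (adjusted p = 0.225) without that male and -0.947 (adjusted p = 0.844) without replicate 1, the male with 495 CPM. Lama3 had 74.3, 155, 31.6 and 182 CPM in PTX males, against 165, 166 and 6.93 CPM in vehicle males. The groups overlapped, with a change of 0.04 ± 1.04 that turned negative under RLE scaling (-0.09).

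Lama5 had 225, 281, 228 and 587 CPM in K5 libraries of PTX males, against 195, 0.608 and 76.4 CPM in vehicle males, a change of 1.89 ± 1.09 (adjusted p = 0.485). Col4a2 had 320, 189, 267 and 221 CPM in PTX males, against 41.1, 0.608 and 115 CPM in vehicle males, a change of 2.34 ± 1.21 (adjusted p = 0.399). Col4a1 had 189, 321, 111 and 545 CPM in PTX males, against 7.88, 162 and 0.308 CPM in vehicle males. It overlapped through replicate 2 of the vehicle males, the library with Pecam1 at 320 CPM, and the change of 2.48 ± 1.54 was 6.13 without that library (adjusted p = 0.212). The change was 1.48 ± 1.58 for Lamb2 (adjusted p = 0.889) and 2.31 ± 1.98 for Lamc1 (adjusted p = 0.804), with overlapping groups. Without replicate 3 of the vehicle males, which had 273 CPM of Lamb2, that of Lamb2 was 7.26, and without replicate 1, with 47 CPM of Lamc1, that of Lamc1 was 4.5. Without replicate 1 the change of Lama5 was 3.18, and without replicate 3 that of Col4a2 was 3.63.

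The balance of epidermal laminin to collagen IV, as log2 of (Lama3 + Lamb3) over (Col4a1 + Col4a2) counts, was -2.53 to -1.34 in the 4 K5 libraries of PTX males, 0.961 to 2.61 in the 4 of vehicle females and -0.0322 to 3.75 in the 3 of vehicle males. The PTX libraries were below every vehicle library. Per 1000 counts of Krt5, Lamb3 had 15.5, 32, 21.9 and 0.17 counts in PTX males, against 78.8, 0.152 and 16.5 in vehicle males. Lama3 had 82.3, 107, 16.5 and 55.1 counts per 1000 of Krt5 in PTX males, against 26.3, 41.4 and 1.09 in vehicle males. Krt5 itself had 903 to 3310 CPM in PTX males and 4000 to 6370 CPM in vehicle males. Relative to Krt5, both groups overlapped for both chains.

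Markers moved with the group in the K5 sort too. The fibroblast markers, 5 of 8 of which were higher, summed to 11000 to 15300 CPM in PTX males and 85.6 to 483 CPM in vehicle males, where Mfap5 was at 0. The endothelial markers, 8 of 10 higher, summed to 2070 to 3020 CPM in PTX males and 0.883 to 321 CPM in vehicle males, where Cdh5 and Tek were at 0. The pericyte and smooth muscle markers summed to 1330 to 2930 CPM in PTX males and 50.6 to 922 CPM in vehicle males, and 1 of 9 was higher. The immune markers, 2 of 8 higher, summed to 785 to 1070 CPM in PTX males and 8.97 to 56.4 CPM in vehicle males. The basal keratinocyte markers, 3 of 5 lower, summed to 2460 to 9010 CPM in PTX males and 18000 to 20400 CPM in vehicle males. The suprabasal keratinocyte markers, 4 of 6 lower, summed to 500 to 1120 CPM in PTX males and 3910 to 5560 CPM in vehicle males. The adipocyte markers summed to 277 to 626 CPM in PTX males and 0 to 0.152 CPM in vehicle males. Of these, Adipoq, Plin1, Cidec and Lep had no read in either group. Sums overlapped for skeletal muscle markers (0.934 to 1650 against 0.152 to 1.49 CPM) and Schwann markers (8.32 to 122 against 7.29 to 45.5 CPM). Genes with at least 10 counts numbered 7436 to 10257 in PTX libraries and 4546 to 8872 in vehicle male libraries. The part of these differences in the members' values was not tested.

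Of 14 other basement membrane proteins in the K5 sort 2 were higher. Sparc, a collagen-binding matrix protein, had 2280 ± 302 CPM in PTX males (n = 4) and 381 ± 178 CPM in vehicle males (n = 3, adjusted p = 0.00442). Tinagl1 had 445 ± 113 CPM in PTX males and 0.4 ± 0.258 CPM in vehicle males (adjusted p = 0.00197). Of 16 receptor and hemidesmosome genes 2 were lower. Col17a1 had 656 ± 320 CPM in PTX males and 2580 ± 622 CPM in vehicle males (adjusted p = 0.0248), and the syndecan gene Sdc1 had 200 ± 70.8 CPM in PTX males and 791 ± 455 CPM in vehicle males (adjusted p = 0.0371). None of 5 other laminin chains, 3 other collagen IV chains, 9 assembly enzymes and 5 proteases tested passed. The list medians of the log2 fold change were 5.45 for the other proteins (3.39 with genes at 0 in a group set to their bound) and -0.53 for the receptors, beside 0.0705 over all genes.

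In the Col1a2 sort none of the 8 members tested passed between PTX males and vehicle males, and 0.0184% of all genes did, which is 1 higher and 1 lower. By edgeR 3 of the 8 had an unadjusted p under 0.05, as had 876 of all 10857 genes tested, and neither DESeq2 nor limma with voom called any. Nid1 had 881, 779, 430 and 1060 CPM in PTX males, against 1260, 1720, 1830 and 1430 CPM in vehicle males. The groups were apart, and the change was -0.998 ± 0.30 (adjusted p = 0.468). Hspg2 had 170, 304, 59.5 and 356 CPM in PTX males, against 383, 491, 484 and 659 CPM in vehicle males, also apart, with a change of -1.19 ± 0.50 (adjusted p = 0.504). Over all genes 1.75% were apart in that direction. Per 1000 counts of Col1a2, Nid1 had 131, 146, 143 and 289 counts in PTX males, against 97, 142, 171 and 196 in vehicle males. Hspg2 had 25.3, 57, 19.7 and 97.3 in PTX males, against 29.5, 40.4, 45.4 and 90.7 in vehicle males. Relative to Col1a2, whose own level is given below, the groups overlapped for both genes. Lamc1 had 407, 308, 76.7 and 243 CPM in PTX males, against 474, 322, 673 and 701 CPM in vehicle males, a change of -1.07 ± 0.46 (adjusted p = 0.505), with overlap.

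The remaining members of the Col1a2 sort overlapped between the groups. Col4a1 had 820, 1280, 820 and 553 CPM in PTX males, against 223, 986, 1000 and 1180 CPM in vehicle males, a change of 0.04 ± 0.44. Col4a2 had 747, 1010, 412 and 716 CPM in PTX males, against 195, 753, 1020 and 1500 CPM in vehicle males, a change of -0.26 ± 0.46. With RLE scaling, which moved the median over all genes to 0.235, against 0.0764 with TMM, the Col4a2 change was 0.0273. Lamb2 had 1520, 1430, 481 and 1660 CPM in PTX males, against 676, 1660, 2310 and 1500 CPM in vehicle males, a change of -0.28 ± 0.37.

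The epidermal chains were low in most Col1a2 libraries. Lamb3 had 0, 0, 1 and 2 reads in PTX males and none in vehicle males, and was not tested. Lama3 had 47.8, 0, 0 and 1.32 CPM in PTX males, against 0.18, 0.072, 24.1 and 2.38 CPM in vehicle males. Lama5 had 0.127, 362, 96.1 and 9.91 CPM in PTX males, against 0.09, 0.072, 40.1 and 0.159 CPM in vehicle males, a change of 3.56 ± 2.17 (adjusted p = 0.81). Lama5 was above 9 CPM in 3 of the PTX libraries and 1 vehicle male library, and the groups overlapped for Lama3 and Lama5.

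Col1a2 itself had 6730, 5330, 3010 and 3660 CPM in PTX males of the Col1a2 sort, against 13000, 12200, 10700 and 7260 CPM in vehicle males, and the 8 fibroblast markers summed to 39800 to 59600 CPM in PTX males and 61600 to 88100 CPM in vehicle males, with 1 of 8 lower. The pericyte and smooth muscle markers summed to 409 to 4450 CPM in PTX males and 367 to 1110 CPM in vehicle males. Their part in the members' values was not tested. None of 5 other laminin chains, 3 other collagen IV chains, 11 other basement membrane proteins, 13 receptor and hemidesmosome genes, 11 assembly enzymes and 5 proteases passed. Sparc, with 2690 ± 303 CPM in PTX males and 5500 ± 1020 CPM in vehicle males, had a change of -1.05 ± 0.19 (adjusted p = 0.106).

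The difference between sorts in the PTX effect was tested with an interaction term over all libraries. The CD45 change was lower than the K5 change for 6 of the 9 members, where 11.4% of all genes were lower: Lama5, Lamb2, Lamc1, Col4a2, Nid1 and Hspg2. Nid1 differed by -9.68 ± 1.71 (adjusted p = 9.61e-05) and Hspg2 by -8.01 ± 1.32 (adjusted p = 3.15e-05). Lamb2 differed by -8.34 ± 1.66 (adjusted p = 0.000513) and Col4a2 by -5.75 ± 1.43 (adjusted p = 0.00591). With only the libraries of these sorts Col4a2 did not pass (adjusted p = 0.0544), nor did Lamc1 (adjusted p = 0.199). The Lamc1 term of -4.37 ± 1.44 (adjusted p = 0.0417) was lost without any one of 9 libraries, with an adjusted p of up to 0.117 without replicate 3 of the K5 vehicle males. The median over all genes was -1.02.

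The CD45 change was lower than the Col1a2 change for Lamb3, Lama5, Lamb2 and Hspg2, where 1.64% of all genes were. Lamb2 differed by -6.61 ± 1.48 (adjusted p = 0.0132). The Hspg2 term of -4.46 ± 1.13 (adjusted p = 0.0284) was lost without any one of 10 libraries. The Lamb3 term (adjusted p = 0.035) was lost without any one of 11. In the CD45 sort it sets 2 reads in PTX males against 1317 in vehicle males, 1101 of them in replicate 4. In the Col1a2 sort it sets 3 reads in PTX males against 0 in vehicle males. The fitted size of the Lamb3 term thus depends on the prior count, as does that of Lama5. The K5 change exceeded the Col1a2 change for Nid1 alone, by 5.28 ± 1.52 (adjusted p = 0.0264), where 6.2% of all genes were higher. This term was lost without replicate 2 (adjusted p = 0.0817) or 3 (adjusted p = 0.0707) of the K5 vehicle males, and with only the libraries of these sorts (adjusted p = 0.105). These comparisons share the libraries of the sorts, and the marker differences given above enter them as well.

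The vehicle groups were also compared by sex. No member passed between vehicle females and vehicle males, of 7 tested in the CD45 sort, 8 in the Col1a2 sort and 9 in the K5 sort, where 0.354%, 0.0184% and 0.00914% of all genes passed. In the CD45 sort 3 members had an unadjusted p under 0.05 by edgeR, as had 499 of all 12131 genes tested, and the same number passed by DESeq2, and in the other two sorts both counts were 0. Lamb2 differed by -2.69 ± 0.56 in the CD45 sort (adjusted p = 0.0666). Nid1 had 12.8, 7.71, 1.52 and 17 CPM in females, against 114, 69.6, 70 and 210 CPM in males, a difference of -3.61 ± 0.90 (adjusted p = 0.128). Hspg2 differed by -3.85 ± 1.12 (adjusted p = 0.245). Every female was below every male for Lamb2, Lamc1, Col4a1, Nid1 and Hspg2 in the CD45 sort, where 4.67% of all genes were. The fibroblast markers summed to 85 to 401 CPM in the same females and 4210 to 9930 CPM in the males, and their part was not tested.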

How the data were processed

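Per the labels' protocols, poly(A) RNA of the sorted cells went into stranded TruSeq libraries, read from 1 end over 50 bases. The submitters' processing notes name bcl2fastq, TopHat2, HTSeq and the mouse build mm9. Their versions, the annotation and the strand setting of counting are unknown here. Each of the 35 deposited tables gives the authors' raw count per gene symbol for 1 library. HTSeq's own lines were left out: reads in no gene made up 10.4 to 31% of a library and reads without a unique place 34.9 to 60.9%.

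Groups were taken from the labels. Within a sort, edgeR 4.0.16 under R 4.3.3 was used with filterByExpr, TMM scaling, a robust glmQLFit and the quasi-likelihood F-test, with 1 coefficient per group. Sorts were compared in 1 fit over all libraries. P-values are two-sided, adjusted by Benjamini-Hochberg over all genes tested, with a threshold of 0.05. Changes are given as log2 value ± SE. Where a gene had no count in a group, a floor of 3 counts per library gave a bound. Coding lengths came from GENCODE on GRCm38 and motifs from RefSeq promoters. Python 3.11.15 was used for these. The tests were also run on counts simulated from edgeR's own model and fitted spread. That run cannot judge how the tests handle single libraries far from the rest of a group. Every pair of libraries in a group differed by more than counting noise.

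The 9 members, the lists and the naming rule were chosen with earlier results of these data known. All members were named. From each list up to 3 genes per direction that passed, with the lowest p, or at most 2 others by level, could be named. The alternatives were RLE scaling, library size alone, no filter on low counts, DESeq2 1.42.0, limma 3.58.1 with voom quality weights, only the groups or sorts compared, a replicate block, other vehicle groups as controls, vehicle males alone, and leaving out each library. One result is not reported here.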

Additional observations from a re-analysis of the deposited data

Results flagged for a closer look

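In groups of 4 libraries, 4 of 64 combinations of a gene and a group had a single library far from the other 3 on the log2(CPM + 1) scale, by Dixon's ratio of gap to range at its 95% critical value. Chance marks about 1 in 20 such groups. In the Col1a2 sort Lama5 had 40.1 CPM in replicate 3 of the vehicle males, against 0.072 to 0.159 CPM in the others. Lamb2 had 481 CPM in replicate 3 of the Col1a2 PTX males, against 1430 to 1660 CPM in the others. Col4a1 had 68.8 CPM in replicate 2 of the CD45 PTX males, against 1.97 to 3.23 CPM, and 223 CPM in replicate 1 of the Col1a2 vehicle males, against 986 to 1180 CPM.

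The PTX effect differed between sorts for 11 of 27 interaction terms at an adjusted p under 0.05 by edgeR. Between the K5 and Col1a2 sorts this was Nid1 (log2 difference 5.28), where 6.2% of all genes were higher. Between the CD45 and Col1a2 sorts it was Lamb3 (-11.6), Lama5 (-13.3), Lamb2 (-6.61) and Hspg2 (-4.46), where 1.64% of all genes were lower. Between the CD45 and K5 sorts it was Lama5 (-11.6), Lamb2 (-8.34), Lamc1 (-4.37), Col4a2 (-5.75), Nid1 (-9.68) and Hspg2 (-8.01), where 11.4% of all genes were lower. The values of Lamb3 and Lama5 rest on groups with 0 to 3 reads and depend on the prior count. Some of these calls were lost on leaving out 1 library. This held for Nid1 (any one of 2 libraries) between K5 and Col1a2 and for Lamc1 (9) between CD45 and K5. It also held for Hspg2 (10) and Lamb3 (11) between CD45 and Col1a2.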

How the results depend on the processing

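Of 2767 values of single members recomputed under alternatives, 2587 kept their direction and side of the threshold, 71 were weaker, 50 stronger and 59 reversed. The cause of these differences was not tested, apart from fewer libraries where some were left out. The K5 sort had 3 vehicle males and 1 library, replicate 2 of the vehicle females, with 988712 counts.

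Counts of members and of all genes were not among these values. A count was taken as moved when it did not stay within 1.5 times. The counts moved as follows. For PTX in the CD45 sort, where 4 members and 669 genes passed, limma with voom gave 0 members and 38 genes, vehicle females as controls 2 and 213, both sexes as controls 2 members, no filter 407 genes and DESeq2 1870 genes. For PTX in the K5 sort, with 0 members and 159 genes, DESeq2 gave 1 and 1339, voom 385 genes and both sexes as controls 353 genes. For PTX in the Col1a2 sort, with 2 genes, RLE scaling, only the 2 groups compared and both sexes as controls gave 1 gene each, voom 0, no filter 4 and DESeq2 403. Between females and males, DESeq2 gave 3 members and 284 genes in the CD45 sort (0 and 43 by edgeR), 62 genes in the Col1a2 sort (2 by edgeR) and 553 in the K5 sort (1 by edgeR, 3 with no filter). With vehicle males only, K5 over Col1a2 gave 1997 genes against 3972, CD45 over Col1a2 4 members and 701 genes against 8 and 2807, and K5 over CD45 1631 genes against 4060 and 1 member, Nid1 as lower, in place of the 3 higher ones. With only the libraries of the 2 sorts, the difference in PTX effect between K5 and Col1a2 gave 0 members and 433 genes against 1 and 1002, and that between CD45 and Col1a2 468 genes against 244.

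Deviations of same-numbered libraries from their group means correlated at -0.0494 to 0.115 over 22 pairs, and 1 exceeded 0.1. Libraries of different numbers were not taken as a reference, so these values cannot settle whether replicate numbers pair the libraries. With the replicate block, PTX in the CD45 sort gave 1 member, Lamb2, and 148 genes (adjusted p 0.0746 for Lama5, 0.0568 for Nid1 and 0.0703 for Hspg2), the sexes 24 genes in the CD45 sort and 1 in the Col1a2 sort, and CD45 against Col1a2 in the PTX effect 2 members, against 4, and 143 genes (adjusted p 0.098 for Lamb3 and 0.0594 for Hspg2). Lama3 did not pass for CD45 over Col1a2 (adjusted p 0.0644), while Lamc1 passed for K5 over CD45 (0.0493) and Col4a1 for CD45 against K5 in the PTX effect (0.0159). Under the block Lama3 reversed for PTX in the Col1a2 sort (-1.58) and in the K5 sort (-0.166) and for K5 against Col1a2 in the PTX effect (0.0958), and Col4a1 for K5 over CD45 (-0.188).

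Other reversals concerned values that had not passed, apart from Hspg2. For PTX in the Col1a2 sort these were Col4a2 (0.0273 with RLE, 0.0272 with DESeq2) and Col4a1 (-0.322 with voom). For PTX in the K5 sort it was Lama3 (-0.0939 with RLE, -0.0938 with DESeq2, -0.208 with no filter, -0.647 against vehicle females and -0.375 against both sexes). With vehicle males only, Lama5 was 1.15 for CD45 over Col1a2, and for K5 over CD45 Col4a1 was -0.606, Col4a2 -0.983 and Hspg2 -0.338. Lamb2 for K5 over CD45 was 0.101 with RLE, 0.287 with library size, 0.06 with no filter and 0.0595 with only these sorts.

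Leaving out each library in turn gave 3 to 5 members and 230 to 954 genes for PTX in the CD45 sort, the lowest without vehicle males 2, 3 or 4 (230, 232 and 279). It gave 84 to 164 genes for PTX in the K5 sort and 0 to 4 in the Col1a2 sort. Between the sexes it gave 0 to 1 members and 12 to 69 genes in the CD45 sort and 1 to 3 genes in the Col1a2 and K5 sorts. K5 over CD45 had 3 to 5 members. In the PTX effect, CD45 against Col1a2 had 2 to 5 members and 93 to 281 genes, CD45 against K5 952 to 1742 genes, and K5 against Col1a2 1 to 2 members and 596 to 1055 genes. Signs turned for Lama3 (-3.89 to 3.82), Col4a1 (-0.278 to 0.206) and Col4a2 (-0.589 to 0.1) with PTX in the Col1a2 sort, for Lama3 with PTX in the K5 sort (-0.444 to 0.547), for Lama5 in CD45 over Col1a2 (-0.852 to 2.76), for Col4a1 (-1.22 to 0.89), Col4a2 (-0.406 to 0.88) and Lamb2 (-2.91 to 0.37) in K5 over CD45, and for Lama3 (-3.59 to 3.96) and Lama5 (-8.02 to 0.0599) in the PTX effect of K5 against Col1a2.

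Besides Hspg2 for PTX in the CD45 sort (vehicle males 2, 3 and 4) and Nid1 in the PTX effect of K5 against Col1a2 (K5 vehicle males 2 and 3), calls lost without 1 library were those of Lama3 in CD45 over Col1a2 (each CD45 vehicle female, CD45 vehicle males 1, 2 and 3, Col1a2 vehicle female 2 and male 3), and, in the PTX effect, Lamc1 in CD45 against K5 (CD45 vehicle males 2 and 4, CD45 PTX males 2, 3 and 4, Col1a2 PTX male 2, K5 vehicle males 2 and 3, K5 PTX male 2), Hspg2 (CD45 vehicle male 4, CD45 PTX males 1, 2 and 4, each Col1a2 vehicle male, Col1a2 PTX males 2 and 4) and Lamb3 (CD45 vehicle male 4, each CD45 PTX male, each Col1a2 vehicle male, Col1a2 PTX males 3 and 4) in CD45 against Col1a2, at adjusted p of 0.0504 to 0.146. Calls were gained for Col4a1 with PTX in the CD45 sort (without PTX male 2), for Lamb2 between the sexes in the CD45 sort (without PTX male 2 or 4), in K5 over Col1a2 for Lama5 (5.86 without Col1a2 vehicle male 3), and in K5 over CD45 for Lamb2 (-2.91 without K5 vehicle male 3), Nid1 (-3.76 without K5 vehicle male 1, -3.1 without K5 vehicle female 3), Lamc1 (-2.77 without K5 vehicle male 1, also without CD45 vehicle female 2 or CD45 PTX male 4) and Lama5 (13 libraries, 2.47 to 3.52 over all omissions). In the PTX effect they were gained in K5 against Col1a2 for Lamb2 (7.56 without K5 vehicle male 3), Col4a1 (6.19 without male 2), Lamc1 (5.56 without male 1), Lama5 (without Col1a2 vehicle male 3) and Hspg2 (CD45 PTX male 3, K5 vehicle females 3 and 4, K5 PTX male 2), in CD45 against K5 for Col4a1 (-8.3 without K5 vehicle male 2, -7.58 without CD45 PTX male 2), and in CD45 against Col1a2 for Nid1 (K5 vehicle female 3, K5 vehicle male 1).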
